A study of Mus musculus with 2 samples.

Results

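The S100 genes encode small calcium-binding proteins. Of the 27998 genes in the data, 17 carried an S100 family name, and the 7 described here (S100a8, S100a9, S100a4, S100a6, S100a10, S100a11 and S100a13) were taken by their symbols. The other 10 held at most 56 unique molecular identifiers (UMIs, each standing for 1 captured RNA molecule) in either library. The RNA came from CD45+ leukocytes sorted from the brains of C57Bl/6 mice at postnatal day 21, with 1 single-cell library from untreated WT littermates (galc+/+) and 1 from untreated twi mice (galc-/-). Twi mice carry no working copy of the lysosomal enzyme galactosylceramidase in any cell and model globoid cell leukodystrophy. Each library pooled cells of a few animals, so no replicate error between animals could be had and no difference between the genotypes was tested. The intervals given here are 95% intervals that cover counting error only.

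S100 proteins hold calcium in paired EF-hand loops and act by binding partner proteins inside the cell or, once released, receptors on other cells. S100a8 and S100a9 encode the 2 chains of calprotectin, the main cytosolic protein of neutrophils, whose extracellular form is known as a ligand of Tlr4, Ager and Cd36. S100a4 binds nonmuscle myosin, S100a6 binds Cacybp and annexins, S100a10 forms a complex with annexin A2 and has lost calcium binding, S100a11 binds annexin A1, and S100a13 takes part in the release of FGF1 and interleukin 1 alpha.

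All 7 genes lie on mouse chromosome 3 (GENCODE M21 annotation of GRCm38). S100a13 (chr3:90514435-90524581), S100a4 (chr3:90603771-90606045), S100a6 (chr3:90612882-90624181), S100a8 (chr3:90668978-90670035) and S100a9 (chr3:90692632-90695721) fall within 181287 bases. S100a11 (chr3:93520488-93526287) and S100a10 (chr3:93555080-93564643) form a second group. S100a9 is on the minus strand and the other members are on the plus strand. S100a4 overlaps the same-strand gene model Gm42674, which held 0 UMIs in both libraries. S100a8 was found with S100a9 in neutrophils below, and S100a4 with S100a6 in monocytes and effector T cells. S100a5 lies between S100a4 and S100a6. The promoters of the members of these 2 nearby pairs are shown. The 100 bases before the RefSeq start of each (RefSeq promoter table, GRCm38.p6) are printed 5′ to 3′ on the strand of the gene, with any TATAAA in capitals. The windows are chr3:90668971-90669070 for S100a8, chr3:90695722-90695821 on the minus strand for S100a9, chr3:90603670-90603769 for S100a4 and chr3:90612794-90612893 for S100a6.
S100a8: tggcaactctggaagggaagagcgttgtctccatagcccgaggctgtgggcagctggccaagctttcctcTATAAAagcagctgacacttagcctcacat
S100a9: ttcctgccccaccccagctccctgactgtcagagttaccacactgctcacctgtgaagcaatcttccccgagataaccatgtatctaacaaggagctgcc
S100a4: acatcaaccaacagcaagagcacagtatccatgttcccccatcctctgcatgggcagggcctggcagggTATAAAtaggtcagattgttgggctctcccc
S100a6: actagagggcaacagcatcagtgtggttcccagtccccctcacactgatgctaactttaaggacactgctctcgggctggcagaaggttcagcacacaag
TATAAA on the gene's own strand was found 30 bases before the start in S100a8 and 31 bases before it in S100a4, and in neither of the genes they pair with. Of 27025 promoters in the table, 4.14% held it in this window. S100a11 had 3 matches to GGGCGG, counted on both strands, where 25.2% of all promoters had at least 1, and S100a13 had neither motif. The S100a10 promoter is not among these sequences. These matches are letters in a window and were not tied to the levels.

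The WT library held 1271 cells and 3741477 UMIs in them (median 2222 per cell), and the twi library 1207 cells and 4791200 UMIs (median 3182). They shared 0 cell barcodes. Xist, the transcript of the inactive X chromosome, was found in 0 WT and 574 twi cells (47.6%), so sex was not balanced between the pools, and the ratios were also computed in cells with Y-linked UMIs and no Xist. Cells were put into 10 classes by marker UMIs. Camp was found in 99.3% and 100% of WT and twi immature neutrophils. Ncr1 was found in 96.2% and 94.7% of NK cells, and Cd79a in 99.1% and 98.8% of B cells. The gates used these genes, so such shares are no independent check of the class names. The microglia gate was less uniform, with P2ry12, a homeostatic microglial gene, in 85% of its WT cells and 54.5% of its twi cells. The gate called IL-17 program T held CD3+ cells without Cd4 or Cd8 that carried at least 2 of 10 genes of that program, and Cd163l1 was found in 75% of its 8 WT and 76.9% of its 39 twi cells.

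Across all cells, the neutrophil pair and S100a11 were lower in the twi library and S100a4 was higher. On the CPM scale (UMIs of a gene scaled to a fixed total of UMIs, so that libraries and classes of unequal depth can be compared), S100a8 was 38573 in WT and 8878 in twi, a twi over WT ratio of 0.230 (0.228 to 0.233), and S100a9 was 22363 and 5390 (0.241, 0.238 to 0.244). S100a11 was 1666 and 855 (0.513, 0.493 to 0.534), whereas S100a4 was 132 and 320 (2.42, 2.19 to 2.69). The remaining 3 differed less. S100a6 was 1120 and 1068 (0.954), S100a10 was 688 and 800 (1.16), and S100a13 was 168 and 202 (1.21). Thus 1 member was at least 1.5-fold higher and 3 were at least 1.5-fold lower in twi, where 27.4% of 10657 genes with enough UMIs passed 1.5-fold in either direction. The median log2 ratio was -0.07 over the members and -0.03 over all these genes.

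The classes present in each library differed. Neutrophils were 17.2% of WT and 5.14% of twi cells, B cells 44.1% and 13.8%, and effector CD8+ T cells 3.38% and 30.2%. To separate level from composition, the WT class levels were weighted by the twi class mix, taken as the share of UMIs in each class. Composition alone then gave ratios of 0.260 for S100a8, 0.262 for S100a9, 0.526 for S100a11, 1.95 for S100a4, 1.53 for S100a10, 1.21 for S100a13 and 0.776 for S100a6. The part left after composition, twi over this weighted WT level, was 1.24 for S100a4, 1.23 for S100a6 and 0.763 for S100a10. It was 0.884 for S100a8, 0.921 for S100a9, 0.975 for S100a11 and 1.00 for S100a13. The WT effector CD8+ T cell levels used here rested in part on 1 deep cell, described below. Without that cell S100a4 was 119 CPM in place of 314, S100a6 373 in place of 712 and S100a10 916 in place of 1220. The weighted ratios were not recomputed without it. With the class mix held at that of WT, the ratios were 0.939 for S100a8, 0.971 for S100a9, 0.930 for S100a11 and 1.00 for S100a13, all within 1.5-fold of 1. S100a4 was at 1.85 on the same basis, S100a6 at 1.08 and S100a10 at 0.831. Cells that passed the gates of more than 1 class entered this weighting as a group of their own. They held 56 S100a4 UMIs of 278878 UMIs in WT (38 cells) and 151 of 155749 in twi (26 cells). Part of the 1.85 thus came from them, and it was not recomputed without them. In a sort of CD45+ cells such a mix also depends on how many cells of each class were recovered.

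The source of each member shifted accordingly. Neutrophils held 91.0% of S100a8 UMIs in WT and 88.5% in twi, and most of the rest lay in cells that passed the gates of more than 1 class. For S100a6, neutrophils supplied 62.8% of the WT UMIs and 16.9% of the twi UMIs, and effector CD8+ T cells supplied 32.9% of the latter. For S100a4, monocytes supplied 46.3% in WT and 18.0% in twi, and effector CD8+ T cells 12.7% and 30.2%. T and NK cells together held 56.6% of WT and 84.3% of twi S100a10 UMIs.

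**Figure D1:**
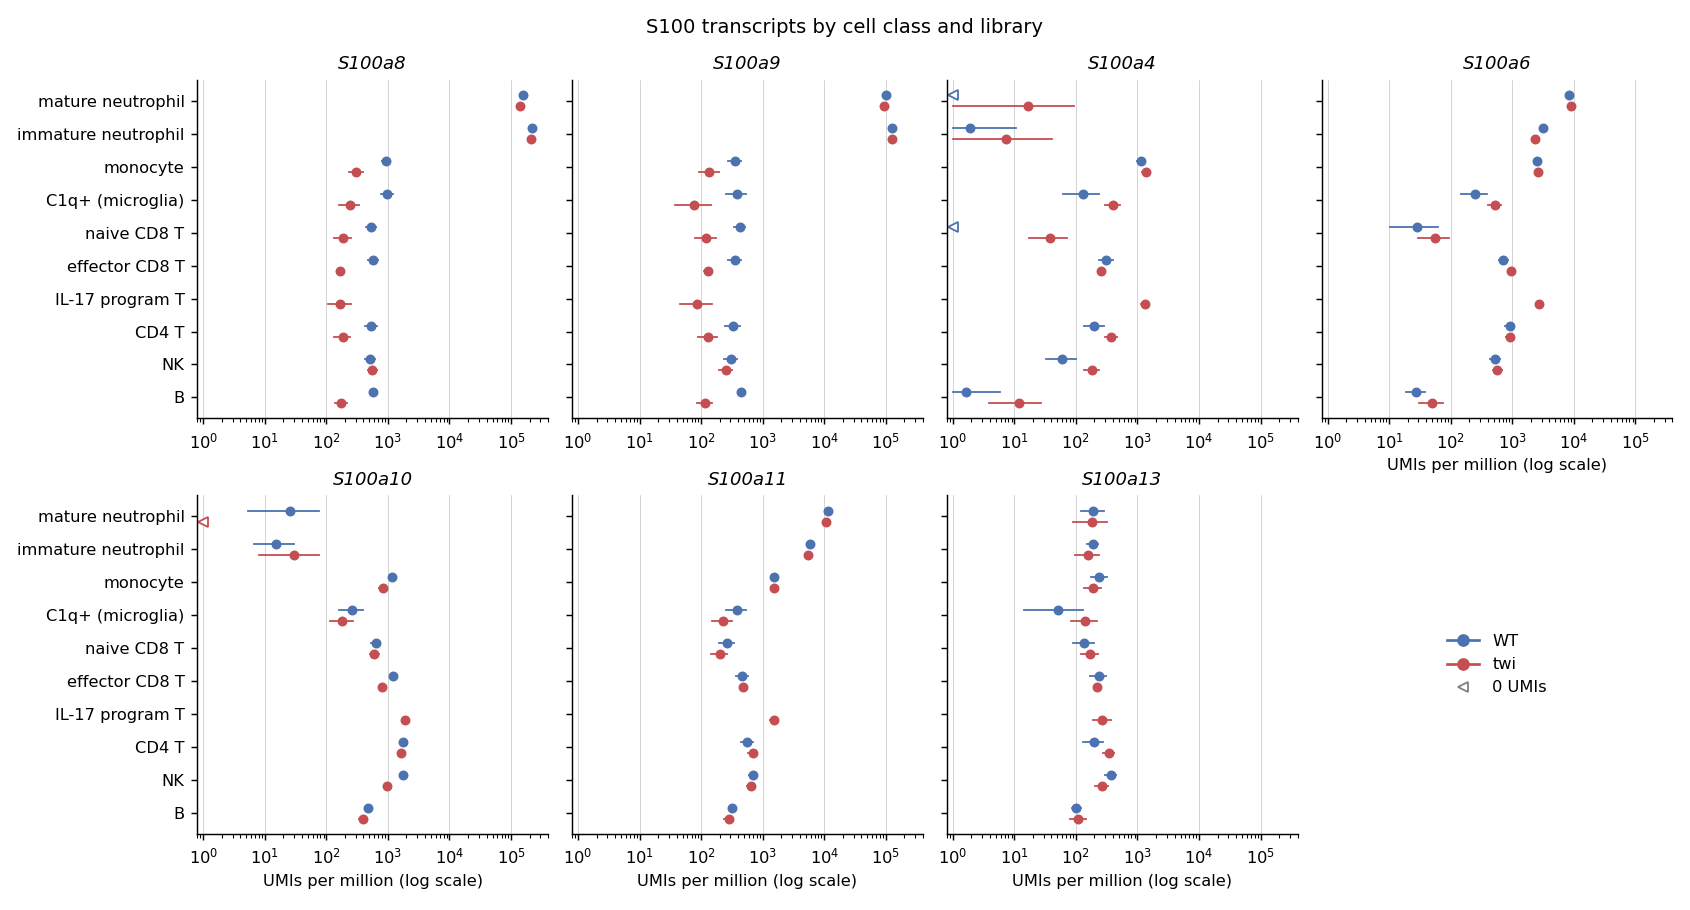
Level of each member (CPM, log axis) in each cell class of the WT and twi libraries, 1 panel per gene. Points are the class sums, bars are exact Poisson 95% intervals and open triangles stand for 0 UMIs. S100a8 is at least 141699 CPM in both neutrophil classes and at most 971 CPM in the other classes shown, while S100a10 is lowest in neutrophils.

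Calprotectin made up a large part of the neutrophil RNA. S100a8 and S100a9 together held 25.7% of all UMIs in WT mature neutrophils and 34.2% in WT immature ones (Camp, Ngp and Ltf of at least 10 UMIs), and 23.6% and 34.1% in twi. S100a8 was 158090 CPM in WT and 141699 CPM in twi mature neutrophils (ratio 0.896, 0.874 to 0.920), and 217324 and 214334 CPM in immature ones (0.986, 0.974 to 0.999). S100a9 was 99284 and 94246 CPM in mature cells (0.949) and 124746 and 126504 CPM in immature cells (1.01). A median mature neutrophil carried 178.5 S100a8 UMIs in WT and 183 in twi, and a median immature one 711 and 981, so the maturity classes differed more than the genotypes did. Immature cells were also deeper, with median totals of 3306 and 4462 UMIs against 1228 and 1602.

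The other granulocyte members showed the opposite order of maturity. S100a6 was 8270 CPM in WT mature and 3217 CPM in WT immature neutrophils, and 9064 and 2335 CPM in twi. S100a11 was 11369 and 5846 CPM in WT and 10735 and 5363 CPM in twi. Mature cells were thus 2.57-fold (2.37 to 2.79) higher in WT and 3.88-fold (3.37 to 4.47) higher in twi for S100a6, and for S100a11 they were 1.94-fold (1.82 to 2.07) higher in WT and between 1.80-fold and 2.23-fold higher, by the interval, in twi. S100a6 was lower in twi immature neutrophils (0.726, 0.642 to 0.819) and close to WT in mature ones (1.10, 0.985 to 1.22). S100a4 and S100a10 were nearly missing from this lineage, with at most 1 S100a4 UMI and 8 S100a10 UMIs in any of the 4 class sums. S100a13 ranged from 155 to 190 CPM. Of the 5 members with enough UMIs, 0 passed 1.5-fold between genotypes in mature neutrophils (30.3% of all genes did) or in immature ones (31.4%).

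Outside neutrophils, S100a8 and S100a9 were present at a low, similar level in all lymphocyte classes. In WT, S100a8 was 582 CPM in B cells, 539 in naive CD8+ T cells, 567 in effector CD8+ T cells, 532 in CD4+ T cells and 519 in NK cells. In twi the first 4 of these were 174, 184, 167 and 183, and IL-17 program T cells were at 167. T cells that met none of the T cell gates were at 673 CPM in WT and 148 CPM in twi. The part of free neutrophil RNA in these UMIs was not tested. S100a8 was found in 68.6% of WT B cells (64.6 to 72.4%) and in 34.1% of twi B cells (27.0 to 41.9%), at median depths of 1999 and 2210 UMIs per cell. After thinning every cell to 1000 UMIs, the shares were 45.2% and 19.4%, and those of S100a9 were 35.9% and 7.88%. Deeper B cells carried more of it, with 1.54 S100a8 UMIs per cell above the WT median depth and 1.03 below.

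The twi over WT ratio of this low S100a8 signal was 0.299 in B cells, 0.341 in naive and 0.295 in effector CD8+ T cells, and 0.344 in CD4+ T cells. Each was above the 0.230 across all cells, which its interval left out. NK cells differed from these classes at 1.08 (519 and 561 CPM). A single twi NK cell held 112 of the 161 S100a8 UMIs, with 43 S100a9 UMIs and 22 UMIs of other neutrophil markers, and without it the ratio was 0.338 (0.238 to 0.475). The number of S100a9 UMIs per S100a8 UMI was 0.582 in WT and 0.607 in twi neutrophils, 0.623 and 0.769 in effector CD8+ T cells and 0.771 (0.689 to 0.862) and 0.662 in B cells. Other neutrophil marker UMIs per S100a8 UMI were 0.545 and 0.533 in neutrophils and 0.856 and 0.919 in B cells. Both ratios were higher in B cells than in the neutrophils of the same library. For S100a9 the twi B cell interval (0.452 to 0.963) held the twi neutrophil value, and the WT interval left out the WT one.

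In monocytes and microglia-gated cells the S100a8 level was above that of most lymphocyte classes, while S100a9 was within their range or below it. Twi microglia-gated cells could not be told apart from twi naive CD8+ T cells in S100a8 (1.31, 0.796 to 2.12). S100a8 was 927 CPM in WT and 302 CPM in twi monocytes, and 971 and 240 CPM in microglia-gated cells. S100a9 was 350 and 137 CPM in monocytes and 375 and 77.4 CPM in microglia-gated cells, against 449 and 115 CPM in B cells. In WT, 1 monocyte held 84 of 188 S100a8 UMIs, and without it the class was at 535 CPM, inside the range of the lymphocyte classes, with a twi over WT ratio of 0.565 in place of 0.326. One WT microglia-gated cell held 31 of 75. S100a8 and S100a9 were the only 2 members past 1.5-fold in monocytes (both lower in twi), where 26.8% of genes passed. Twi monocytes were above the IL-17 program T cells of their library in S100a8 (1.81, 1.11 to 3.07), with 0.452 S100a9 UMIs per S100a8 UMI, and the twi NK cells aside, no twi lymphocyte class was above 184 CPM.

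**Figure D2:**
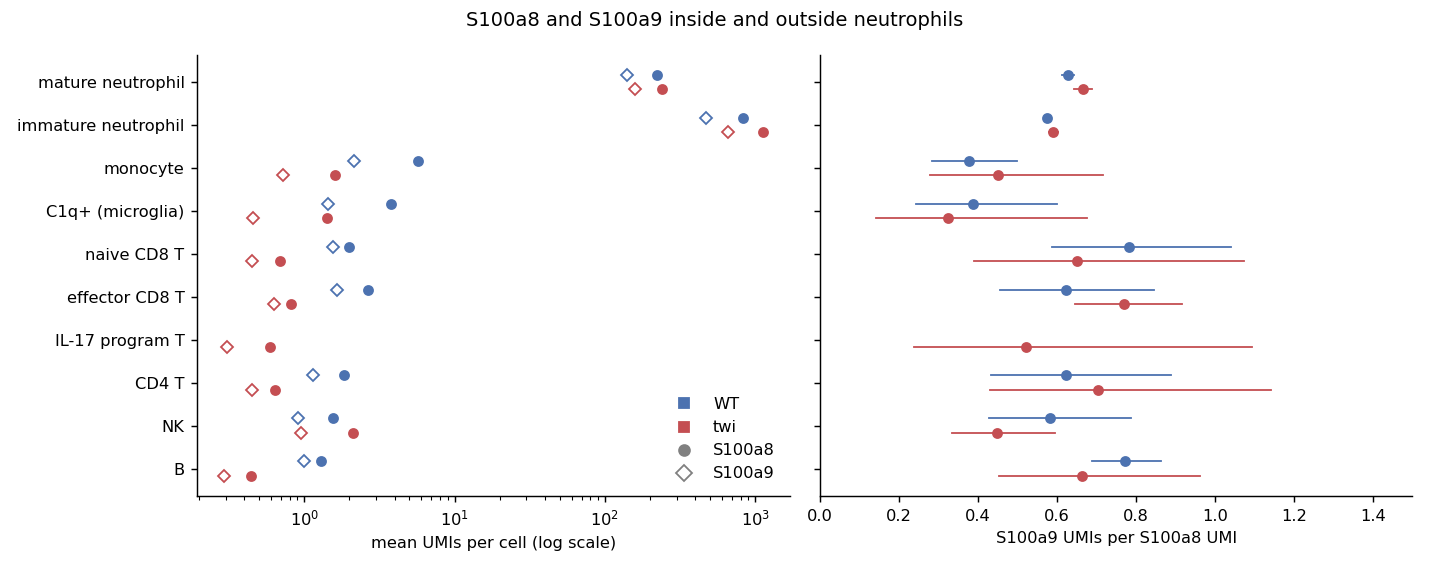
Left, mean UMIs per cell of S100a8 (filled circles) and S100a9 (open diamonds) by class and library on a log axis. Right, S100a9 UMIs per S100a8 UMI with exact 95% intervals. Immature neutrophils hold a mean of 825 (WT) and 1119 (twi) S100a8 UMIs per cell and B cells 1.28 and 0.443.

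If all S100a8 UMIs of a class came from neutrophil RNA, that RNA in proportion would supply 42.4% of the 34 S100a6 UMIs in WT B cells and 38.4% of the 6 in WT naive CD8+ T cells. For S100a6 in effector CD8+ T cells the share was 1.60% in WT and 0.408% in twi, and for S100a4 and S100a10 it was under 1% in each lymphocyte class.

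Outside neutrophils S100a4 and S100a6 were highest in monocytes and IL-17 program T cells. In monocytes S100a4 was 1130 CPM in WT and 1351 CPM in twi (1.20, 1.00 to 1.43), and in IL-17 program T cells it was 1305 CPM in twi and 1608 CPM in the 8 WT cells. S100a6 was 2540 and 2600 CPM in monocytes (1.02), and 2696 CPM in twi IL-17 program T cells. Among twi classes, monocytes and IL-17 program T cells could not be told apart for S100a4 (ratio 1.04, 0.856 to 1.26) or S100a6 (0.964, 0.843 to 1.10). In WT the order of S100a4 was monocytes, effector CD8+ T cells (314 CPM), CD4+ T cells (200), microglia-gated cells (129) and NK cells (59.6), where microglia-gated cells could not be told apart from either neighbour. The place of effector cells rested on the 1 deep cell described next, without which they were at 119 CPM. In twi it was monocytes and IL-17 program T cells, then microglia-gated cells (395) and CD4+ T cells (374), which could not be told apart, then effector CD8+ T cells (260) and NK cells (181). T cells that met none of the T cell gates (129 WT, 238 twi) had 113 and 240 CPM of S100a4 (ratio 2.12) and 490 and 769 CPM of S100a6 (ratio 1.57). Both genes were at or near 0 in naive CD8+ T cells and B cells. S100a4 had 0 UMIs in 58 WT naive CD8+ T cells, where a count of 0 allows up to 3 UMIs, and 9 UMIs in 3 of 62 twi cells.

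The effector CD8+ T cells, the most numerous twi class, differed in make-up between the libraries. Cxcr6, a gene of tissue-resident and effector T cells, was found in 25.6% of WT and 76.6% of twi cells of the class, and the naive-type genes Ccr7 in 41.9% and 14.8% and Tcf7 in 67.4% and 35.7%, so a difference in kind of cell and one in level per cell cannot be told apart here. S100a6 was 712 CPM in WT and 941 CPM in twi (1.32, 1.11 to 1.58), and S100a4 was 314 and 260 CPM (0.828, 0.635 to 1.10). Cells with S100a6 made up 39.5% of the WT and 67.6% of the twi class, and 23.8% and 46.9% after thinning to 1000 UMIs. Cells with S100a4 were 20.9% and 35.7%, and 16.7% and 14.7% after thinning. The WT sums rested on 1 cell of 24127 UMIs (class median 4201), with 53 Cd3 UMIs and 56 cell-cycle UMIs, that held 42 of 63 S100a4 UMIs, 77 of 143 S100a6 UMIs, 83 of 245 S100a10 UMIs and 22 of 93 S100a11 UMIs. Without it, WT S100a4 was 119 CPM and the twi over WT ratio turned from 0.828 to 2.19 (1.41 to 3.57). WT S100a6 was then 373 CPM with a ratio of 2.52 (1.97 to 3.28). The direction of S100a4 in this class thus depended on that cell, and that of S100a6 did not.

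S100a10 in the same cells was 1220 CPM in WT and 788 CPM in twi (0.646, 0.564 to 0.743). Without that cell the ratio was 0.860 (0.730 to 1.02), so it did not hold past 1.5-fold. In the 20 WT and 44 twi cells with Y-linked UMIs and no Xist it was 0.986. Those 20 WT cells included the deep cell, since they held 119 S100a6 UMIs and the class without it held 66. The value of 0.986 is thus no separate check, and it was not recomputed without that cell. S100a11 was 463 and 476 CPM (1.03) and S100a13 was 234 and 221 CPM (0.945). Of the 7 members, 3 were at least 1.5-fold lower in twi (S100a8, S100a9 and S100a10) and 0 higher, where 38.2% of genes passed either way. This count rested on the deep cell. Without it S100a4 (2.19) and S100a6 (2.52) were past 1.5-fold higher. S100a8 (0.279) and S100a9 (0.356) were still lower, and S100a10 (0.860) no longer passed. The share over all genes was not recomputed without that cell.

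**Figure D3:**
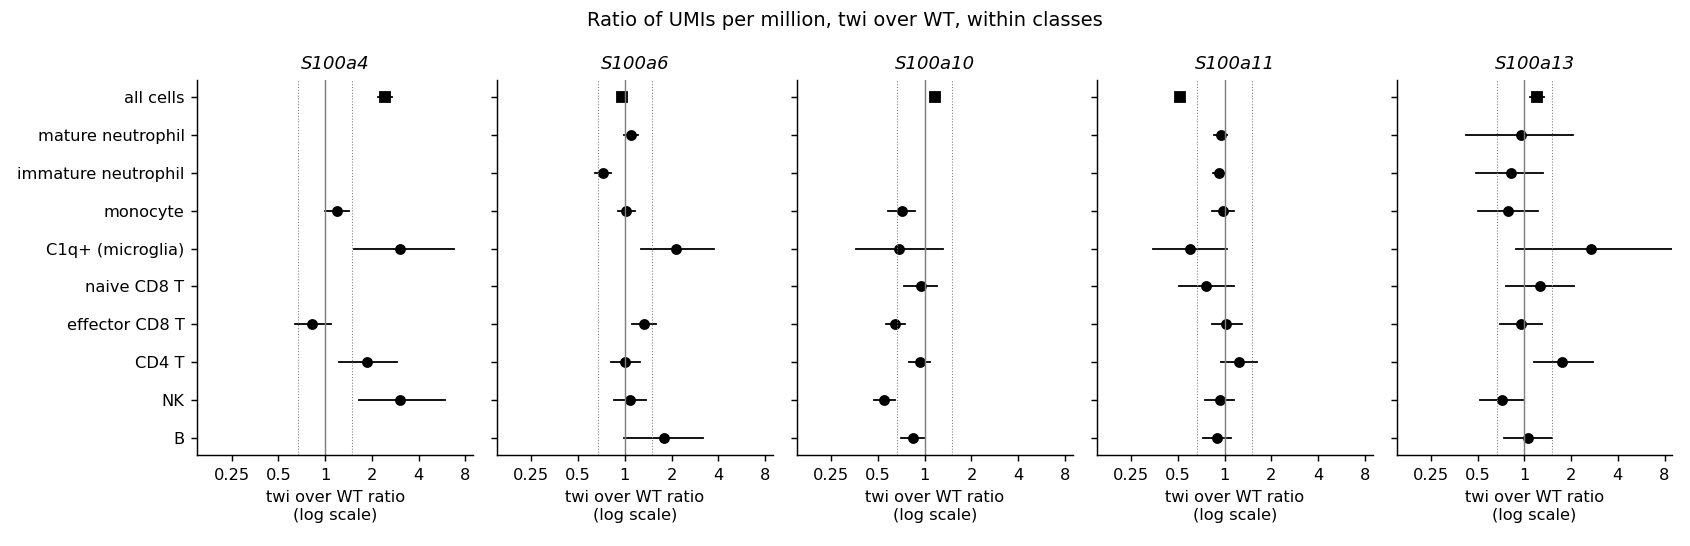
Twi over WT ratio of CPM by class for 5 members (log axis, exact 95% intervals), with all cells as squares and dotted lines at 1.5-fold. S100a4 is to the right of 1 in CD4+ T and NK cells, S100a10 is to the left of 1 in NK cells and monocytes, and S100a11 is within 1.5-fold of 1 in monocytes, T, NK and B cells but at 0.513 over all cells.

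Effector cells were compared with naive CD8+ T cells inside each library, where the genotype and the library are shared. S100a6 was 28.1 CPM in naive and 712 CPM in effector WT cells (25.3-fold, 11.4 to 70.2) and 55.5 and 941 CPM in twi (17.0-fold, 9.90 to 31.9). Without the deep WT cell the WT value was 13.3-fold (5.79 to 37.5). S100a4 was 22.3-fold higher in WT effector cells against a floor of 3 UMIs over the naive class, and 8.45-fold without that cell. These 2 values leave out counting error in the effector cells, and the exact lower limit with the cell was 17.6. In twi it was 6.76-fold (3.53 to 14.9). Of the 9 twi naive UMIs, 6 lay in 1 cell, and without the highest cell of each class the twi value was 18.7-fold. S100a11 was 1.76-fold (1.25 to 2.50) higher in WT and 2.37-fold (1.77 to 3.25) in twi. S100a10 was 1.93 (1.56 to 2.40) and 1.32 (1.11 to 1.58), and 1.45 (1.15 to 1.83) in WT without the cell. S100a13 was 1.72 and 1.30. S100a8 and S100a9 were between 0.838 and 1.08. In WT 5 of 7 members were at least 1.5-fold higher in effector cells (4 of 7 without the deep cell), where 19.3% of genes were, and in twi 3 of 7, where 27.4% of genes were.

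**Figure D4:**
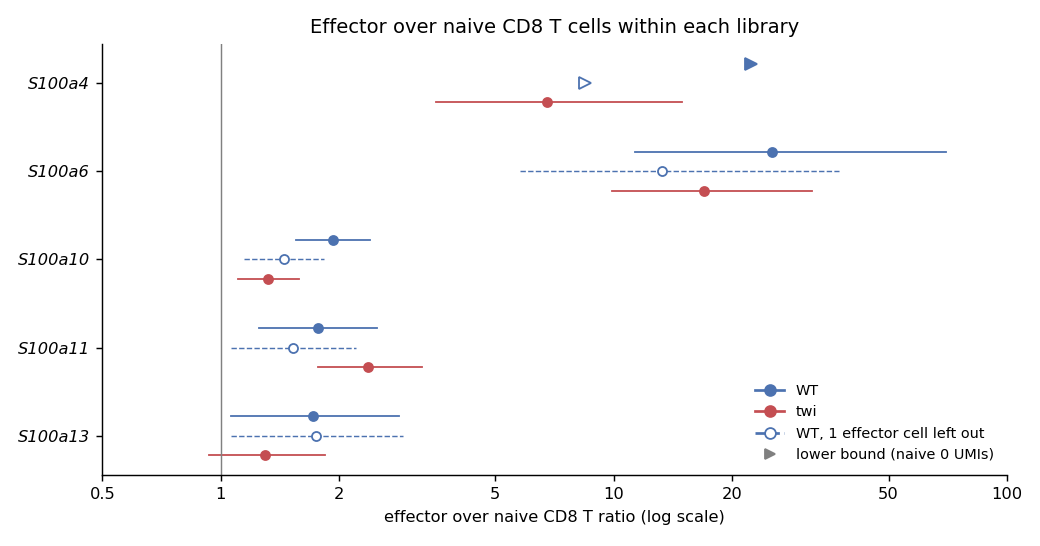
Effector over naive CD8+ T cell ratio of S100a4, S100a6, S100a10, S100a11 and S100a13 (log axis, exact 95% intervals) in WT, WT without the deep cell, and twi. Triangles are lower bounds where naive cells held 0 UMIs. S100a6 is at 25.3 in WT and 17.0 in twi.

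Within effector CD8+ T cells of the twi library the members were uneven. S100a6 reached at least 10 UMIs in 54 of 364 cells (14.8%), against 3 of 43 in WT, and was at 0 in 32.4%. Of the 130 cells with S100a4, 118 (90.8%) also had S100a6. The few cells that carried at least 2 IL-17 program genes (9 cells) had 1279 CPM of S100a4 against 228 CPM in the rest (5.61, 4.28 to 7.26; 3.59 without 1 cell that held 28 of the 69 UMIs) and 2057 against 907 CPM of S100a6 (2.27). S100a11 (2.31, 1.73 to 3.02) and S100a10 (1.63, 1.26 to 2.08) were higher in these 9 cells as well, and the intervals of S100a8, S100a9 and S100a13 held 1. Cycling cells (43) had 1084 CPM of S100a10 against 712 in non-cycling ones (1.52, 1.35 to 1.71), while S100a6 was nearly equal (1.03) and S100a4 was lower (0.745). In cells above the class median for interferon response genes, S100a10 (0.805, 0.721 to 0.897), S100a4 (0.793, 0.654 to 0.959) and S100a6 (0.895, 0.811 to 0.987) were lower. S100a9 was higher there (1.32, 1.01 to 1.72), but without 1 cell of 4 UMIs its interval held 1 (1.28, 0.979 to 1.68). The intervals of S100a8, S100a11 and S100a13 held 1. These splits were chosen after the data were seen.

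**Figure D5:**
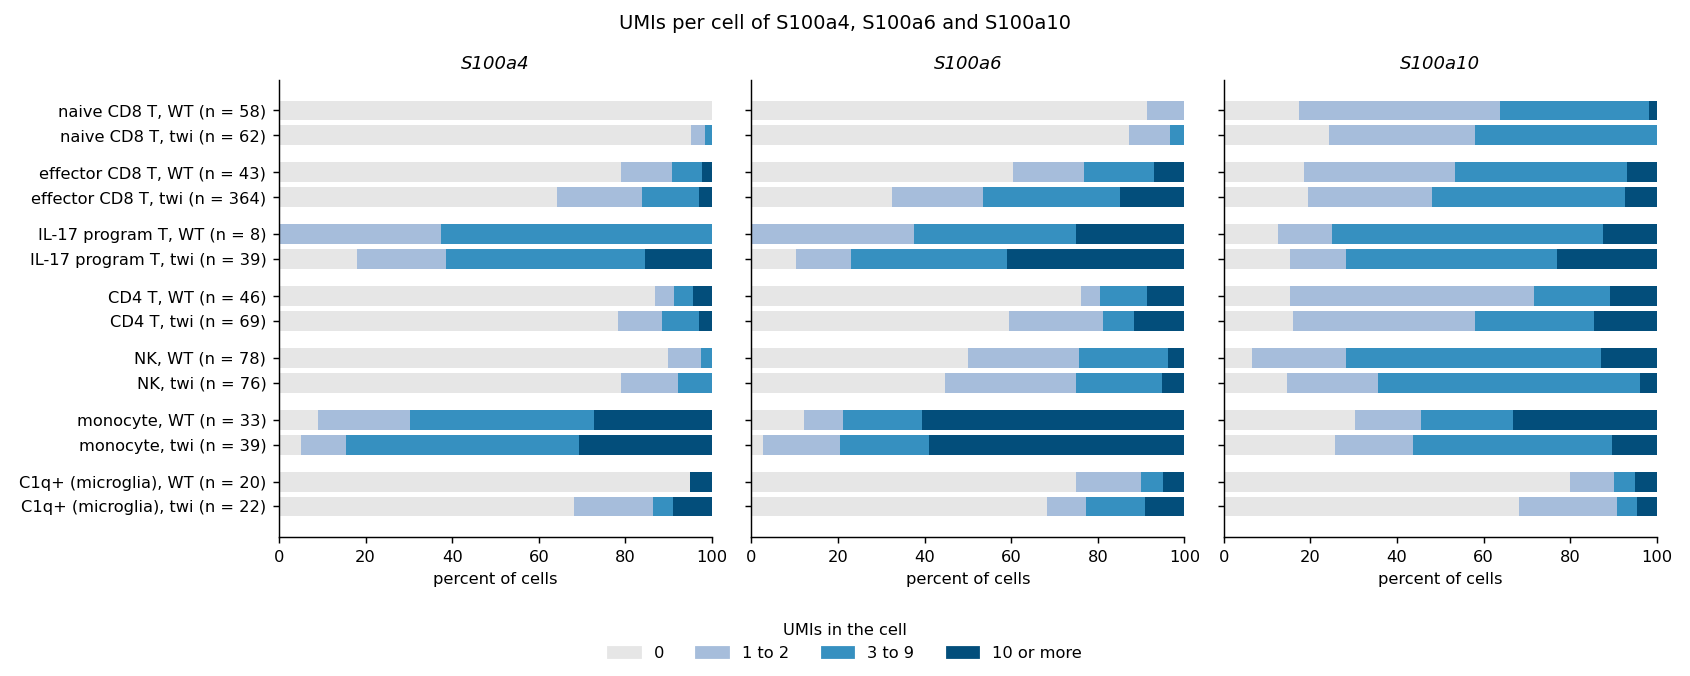
Share of cells (percent) with 0, 1 to 2, 3 to 9 and at least 10 UMIs of S100a4, S100a6 and S100a10 in 7 classes of each library, as stacked bars. In twi effector CD8+ T cells 14.8% of cells hold at least 10 S100a6 UMIs, and in monocytes 60.6% (WT) and 59.0% (twi) do.

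In CD4+ T cells the class sums of S100a4 and S100a13 were higher in twi and that of S100a6 was not. S100a4 was 200 CPM in WT and 374 CPM in twi (1.87, 1.24 to 2.89) and S100a6 was 907 and 915 CPM (1.01). S100a13 was 194 and 341 CPM (1.76, 1.15 to 2.75). Effector genes outweighed naive genes in 2 of 46 WT and 30 of 69 twi CD4+ T cells. Inside the twi class, the 30 cells where effector genes prevailed had 1714 CPM of S100a6 against 151 CPM in the 38 naive-type cells (11.4-fold, 7.01 to 19.6), and 687 against 75.4 CPM of S100a4 (9.11-fold, and 5.92-fold without the highest cell). The 5 WT and 4 twi cells with Foxp3, the regulatory T cell factor, had 3457 and 3724 CPM of S100a6, against 230 and 699 CPM in CD4+ T cells without it. Without the highest of the 4 twi cells the level was 2427 CPM, and S100a6 was found in 50% of those 4 cells. The effector and Foxp3 splits of this class were chosen after the data were seen. The Foxp3 cells held 116 of 145 WT and 64 of 220 twi S100a6 UMIs, so the near-equal class levels rested on them. In the cells without Foxp3, S100a6 was higher in twi. The Foxp3 cells also held 21 of 32 WT and 53 of 90 twi S100a4 UMIs, 31 of them in 1 twi cell. Without Foxp3, S100a4 was 87.1 CPM in WT and 166 CPM in twi, and S100a13 was 135 and 327 CPM. Of 7 members, 2 were at least 1.5-fold higher in twi CD4+ T cells (S100a4 and S100a13) and 2 lower (S100a8 and S100a9), where 27.8% of genes passed. In naive CD8+ T cells 0 of 5 were higher and the same 2 were lower (23.2% of genes).

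NK cells differed in S100a4 and S100a10. S100a4 was 59.6 CPM in WT (14 UMIs) and 181 CPM in twi (52 UMIs), a ratio of 3.04 (1.66 to 5.95), and cells with a UMI were 10.3% and 21.1%. In NK cells with Y-linked UMIs and no Xist the counts were 3 and 2 UMIs (30.5 and 22.3 CPM, ratio 0.732), too few to give a direction. S100a10 was 1748 and 962 CPM (0.550, 0.471 to 0.643). S100a6 was 532 and 575 CPM (1.08), S100a11 was 706 and 655 CPM (0.928) and S100a13 was 366 and 261 CPM (0.715, 0.517 to 0.986). S100a4 and S100a10 were the 2 of 7 members past 1.5-fold, where 25.1% of genes passed. Without the twi NK cell rich in S100a8, S100a8 (0.338) and S100a9 (0.344) were past it as well, 4 of 7 in all.

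S100a10 had an order of its own. In WT it was highest in CD4+ T cells (1752 CPM) and NK cells (1748 CPM), whose sums could not be told apart, then in effector CD8+ T cells (1220) and monocytes (1179), which could not be told apart either, then in naive CD8+ T cells (632), B cells (471) and microglia-gated cells (259). In twi it was highest in IL-17 program T cells (1899) and CD4+ T cells (1631), which could not be told apart. NK cells (962), monocytes (839) and effector CD8+ T cells (788) followed, where monocytes could not be told apart from either neighbour. Then came naive CD8+ T cells (598), B cells (393) and microglia-gated cells (178). Neutrophils were last in both. The WT CD4+ level rested on 5 cells with Foxp3, which held 184 of 280 S100a10 UMIs (5483 CPM), and the other 41 were at 760 CPM, below effector CD8+ T cells and monocytes. A median WT CD4+ T cell held 1 S100a10 UMI and a median WT NK cell 5, and after thinning 37.0% and 76.6% of cells held any. In twi the 4 cells with Foxp3 were at 3317 CPM and the other 65 at 1501 CPM. In monocytes its twi over WT ratio was 0.712 (0.582 to 0.870). Monocytes with Ccr2 or Ly6c2, genes of the classical subset, had 1331 CPM of S100a10 against 186 CPM in the others in WT (7.16, 3.03 to 22.3), and 940 against 119 CPM in twi (7.90, 2.66 to 38.7). The median depths were 6715 and 2441 UMIs in WT and 5277 and 2468 UMIs in twi. The split was also chosen after the data were seen.

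Outside neutrophils S100a11 was highest in monocytes (1539 CPM in WT and 1508 in twi, ratio 0.980), and twi IL-17 program T cells (1500) could not be told apart from them. It was 706 and 655 CPM in NK cells, 375 and 224 in microglia-gated cells, 557 and 686 in CD4+ T cells, 313 and 280 in B cells (0.894) and 262 and 201 in naive CD8+ T cells. S100a13 had the flattest order. It was between 51.8 and 366 CPM in the WT classes and between 108 and 341 CPM in the twi classes, and among neighbours in that order only WT NK cells and WT monocytes had levels whose ratio left out 1 (1.51, 1.05 to 2.20).

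In B cells S100a10 and S100a13 were low per cell, yet this large class held 22.6% of all WT S100a10 UMIs and 20.1% of all WT S100a13 UMIs (4.36% and 4.74% in twi). S100a10 was 471 and 393 CPM (0.835, 0.698 to 0.993) and S100a13 was 102 and 108 CPM. S100a6 was 27.5 and 49.4 CPM on 34 and 21 UMIs (1.80, 0.991 to 3.19). Of 6 members with enough UMIs, 1 was at least 1.5-fold higher (S100a6) and 2 lower (S100a8 and S100a9) in twi, where 21.8% of genes passed.

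In microglia-gated cells (20 WT and 22 twi), S100a4 was 129 and 395 CPM (10 and 51 UMIs, 3.05, 1.53 to 6.73) and S100a6 was 246 and 526 CPM (2.14, 1.27 to 3.77). Cells with P2ry12 or Tmem119 held 0 S100a4 and 6 S100a6 UMIs in 18 WT cells and 4 and 7 UMIs in 15 twi cells. The 7 twi cells without either gene held 47 and 61 UMIs, and the 2 such WT cells 10 and 13. All 10 WT S100a4 UMIs lay in 1 cell, and 25 of the 51 in twi lay in another. In this gate 3 members were at least 1.5-fold higher (S100a4, S100a6 and S100a13) and 3 lower (S100a8, S100a9 and S100a11), where 42% of genes passed. The intervals of S100a13 (4 and 18 UMIs, 2.69, 0.886 to 10.9) and S100a11 (29 and 29 UMIs, 0.598, 0.345 to 1.04) held 1. The part of the P2ry12- cells in these ratios was not tested beyond these counts.

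Among 12 known partners and receptors of the family, Anxa1, the annexin bound by S100a11, was 671 CPM in WT and 223 CPM in twi over all cells (0.333, 0.309 to 0.357), and was 3819 and 4376 CPM in immature neutrophils. Ahnak, which binds the S100a10 complex, was 96.2 and 163 CPM (1.70), Anxa6 196 and 308 CPM (1.57) and Anxa2 357 and 332 CPM (0.928). Of the 10 partners with enough UMIs, 2 were at least 1.5-fold higher in twi and 2 were lower, where 27.4% of all genes passed either way. Within classes Ahnak and Anxa6 were not higher in twi effector CD8+ T cells (0.768 and 0.802) or NK cells (0.769 and 0.886). In effector over naive CD8+ T cells Anxa2 was 40.9-fold (10.9 to 344) in WT and 4.42-fold (2.50 to 8.62) in twi, and Ahnak was 4.96 and 4.70. The deep WT cell held 52 of 77 Anxa2 UMIs, and without it Anxa2 was 15.1-fold. Myh9, the S100a4 partner, was 0.924 and 1.22. Receptor transcripts were scarce, with Tlr4 at 12 and 12 UMIs, Cd36 at 35 and 26, and Ager at 1 and 6. Il1a had 2 and 7 UMIs, all of them in microglia-gated cells.

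Likeness of pattern was described over 19 points (class levels of both libraries, log2 of CPM + 10), which share 2 libraries and their depth. S100a8 and S100a9 had the nearest pattern to one another (r = 0.996), and Lrg1 (0.985), Ceacam10 (0.984) and Ly6g (0.979) were most like S100a8. S100a4 was most like Arf5 (0.893), Bcl2a1d (0.892) and Ccr2 (0.886), S100a6 most like Fam129a (0.917), S100a10 most like Gstp1 (0.956), S100a11 most like Stx11 (0.975) and S100a13 most like Lpcat4 (0.866). Between members S100a11 was close to S100a8 (0.866) and S100a6 (0.850), and S100a10 ran against S100a8 (-0.885). S100a4 and S100a6, though found in the same T cells, had r = 0.270 over all classes. S100a6 was high in neutrophils and S100a4 was not.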

How the data were processed

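CD45+ brain cells were profiled by 10x Genomics 3′ single-cell sequencing, and the deposited values are unnormalized UMI counts, a matrix each for 1 WT and 1 twi library, made by the authors with Cell Ranger 2.1.1 on mm10 per the submitters' processing notes. The members and lists were chosen with earlier results of these data known. Barcodes over 15% mitochondrial UMIs (7 WT, 13 twi) were left out. Cells were classed by marker genes: at least 3 neutrophil genes and 0.5% of UMIs, 3 microglia genes and 5 UMIs, 3 monocyte genes, 2 B genes and 3 UMIs, 2 Cd3 UMIs for T, and 2 NK genes with at most 1 Cd3 UMI. Effector and naive CD8+ T cells were split by summed marker UMIs. Cells that passed 2 gates (38 WT, 26 twi) were left out of the classes but kept in the sums over all cells and in the class mix weighting. No doublet caller was run. Of 6 genes of the planned gamma-delta gate, 5 were not found by name, so the IL-17 program gate replaced it. UMIs were summed per class and library. Exact Poisson, conditional binomial and Clopper-Pearson intervals were used, and only genes with at least 20 UMIs and classes of at least 10 cells entered counts past 1.5-fold. Shares were also thinned to 1000 UMIs per cell (seed 1). Named genes were the members, their listed partners and the 3 genes most like each member. Alternatives were stricter gates, other mitochondrial limits, a margin in the naive or effector split, subtraction of neutrophil RNA, another library size, the mean of per-cell CPM, assigned mixed cells, cells with Y-linked UMIs and no Xist, and the highest cell left out. The ratio, its interval and the 1.5-fold rule were tested on simulated counts of whole libraries. The gates and the other steps were not. Python 3.11.15, NumPy 2.4.6, SciPy 1.17.1 and Matplotlib 3.10.9 were used.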

Additional observations from a re-analysis of the deposited data

Results flagged for a closer look

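For S100a6 the twi over WT ratio was 2.14 in microglia-gated cells and 0.726 in immature neutrophils, a quotient of 2.95. For S100a13 it was 1.76 in CD4+ T cells and 0.715 in NK cells, a quotient of 2.46. In each case the interval of one ratio lay above 1 and that of the other below 1, but without 1 twi NK cell that carried neutrophil transcripts S100a13 in NK cells was 0.725 and its interval reached 1. In microglia-gated cells a single cell held 32 of 68 twi and another 13 of 19 WT S100a6 UMIs, and without the highest cell of each library the ratio was 3.57. The difference between the classes was not tested, since each class has 1 library per genotype.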

How the results depend on the processing

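No paired analysis was possible because each genotype had 1 library. Of 449 alternative values of the class ratios, 409 stayed within the interval of the reported value. In 4 cases the reported interval left out 1 and the value moved to the other side of 1. The remaining 36 left the interval. A change of side was not counted where the reported interval held 1. The 36 thus include S100a4 in effector CD8+ T cells, which crossed 1 without the highest cell. With neutrophil markers and members taken out of the library size, the ratios across all cells were 0.215 (S100a8), 0.225 (S100a9), 0.891 (S100a6), 1.09 (S100a10) and 0.479 (S100a11). As a mean of per-cell CPM they were 0.271, 0.288, 0.846 and 1.24 for S100a8, S100a9, S100a6 and S100a10, and 3.24 for S100a4. In cells with Y-linked UMIs and no Xist they were 0.215 (S100a8), 0.231 (S100a9), 3.08 (S100a4), 1.52 (S100a10), 0.691 (S100a11) and 1.49 (S100a13), and S100a6 turned from 0.954 to 1.31. Without the highest cell of each library S100a8 was 0.222 and S100a9 was 0.233. In immature neutrophils S100a8 turned to 1.00 both with mixed cells assigned and as a mean of per-cell CPM, and S100a11 turned to 1.05 under the latter.

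In cells with Y-linked UMIs and no Xist, effector CD8+ T cell ratios were 1.27 (S100a4), 1.98 (S100a6), 0.986 (S100a10) and 1.47 (S100a13), S100a13 in CD4+ T cells was 2.84, and S100a4 in NK cells turned to 0.732. Effector over naive ratios in those cells were 2.44 (WT S100a10), 23.7 (twi S100a4), 86.5 (twi S100a6), 2.01 (twi S100a10) and 2.87 (twi S100a13). The 12 twi naive cells among them held 1 S100a4, 1 S100a6 and 6 S100a13 UMIs, too few to give the size of those ratios. The WT effector CD8+ T cells with Y-linked UMIs and no Xist included the deep WT cell, and their ratios were not recomputed without it. Without the highest cell of each class and library, effector CD8+ T cell ratios were 2.06 (S100a4), 2.47 (S100a6) and 0.839 (S100a10), and effector over naive was 1.53 (WT S100a10) and 18.7 (twi S100a4). As a mean of per-cell CPM, S100a10 in effector cells was 0.764. Thinned to 1000 UMIs, B cells with S100a8 were 45.2% in WT and 19.4% in twi, and with S100a9 35.9% and 7.88%. In WT B cells of at least 2000 UMIs the shares were 73.9% and 66.8%. The B cell alternative and those without a highest or deep cell were chosen after seeing the data, and the cause of these shifts was not tested. With 1 library per genotype, depth limits genes under 20 UMIs in a class.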

Other observations

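The other 10 S100 genes were near 0. S100a1 had 56 UMIs in WT and 47 in twi, S100a3 had 6 and 3, S100a2 had 4 and 1, S100a7a had 2 and 2, S100b had 1 and 2, and S100a16 had 1 and 0. S100a5, S100a14, S100g and S100z had 0 in both libraries. Cells that passed no gate (38 WT, 43 twi) held 150 and 89 S100a8 UMIs, of which a single cell held 91 in WT and 58 in twi.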
